A study of Homo sapiens with 9 samples.

Results

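UQCC1, UQCC2, UQCC3, BCS1L, TTC19 and LYRM7, which encode assembly factors of respiratory complex III, and CYC1, which encodes its subunit cytochrome c1, were followed in MDA-MB-231 cells treated with the copper chelator TEPA. The 7 genes were listed by name, and UQCC3 was picked on its own values, as the strongest fall after 24 h of TEPA, so its 24 h values are given as a description without a test. All 7 were found among the 59453 gene names of the count table, and all 7 passed the filter on low counts that left 16556 genes. MDA-MB-231 is a human triple-negative breast cancer line with mesenchymal features, and the labels name no modification of it. RNA-Seq was performed on 3 groups of 3 libraries, namely untreated cells, cells given TEPA for 8 h and cells given TEPA for 24 h. The same untreated group served both time points, and the labels give it no time. Time under TEPA and time in culture therefore cannot be told apart. The labels give 8 mM TEPA and the study's sequencing methods a lower concentration, and the treatment text of the labels names only 24 h although the sample labels give both times. The chemical name the study gives TEPA differs between its list of abbreviations and its list of reagents.

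Complex III, the cytochrome bc1 complex of the inner mitochondrial membrane, passes electrons from ubiquinol to cytochrome c and pumps protons. Its cytochrome b is made inside the mitochondrion from MT-CYB, the other subunits are imported, and the complex is put together in steps. UQCC1 and UQCC2 receive the newly made cytochrome b, UQCC3 stabilises it in the next intermediate, cytochrome c1 joins later, and the Rieske iron-sulfur protein UQCRFS1 is inserted last with the help of LYRM7 and BCS1L, after which TTC19 clears fragments of UQCRFS1.

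Total counts per library ran from 34633755 to 49342659. The share of counts from mitochondrially encoded genes was 1.79 to 2.91% in untreated libraries, with replicate 2 highest, 3.61 to 4.02% at 8 h and 1.89 to 2.02% at 24 h. Of the markers of the line, VIM (3242 to 4435 CPM, counts per 1000000), CD44, KRT18 and EGFR were abundant in all 9 libraries, ESR1 was at most 0.240 CPM and PGR at 0, while ERBB2 was at 51.9 to 87.1 CPM. EPCAM was at 0.834 to 1.86 CPM and CDH1 at 0.250 to 3.89 CPM, and CDH1, the epithelial cadherin, was not steady, since it rose by 2.33 on the log2 scale at 24 h (edgeR adjusted p = 1.1e-06). Of the markers of other cell types, MYOD1 was at 0, PTPRC at most 0.133 and PECAM1 0.850 to 8.98 CPM, and ALB had at most 2 counts. PECAM1 fell by 1.76 at 8 h (edgeR adjusted p = 8.9e-07) and rose by 1.18 at 24 h (adjusted p = 1.9e-06) on the log2 scale, and the part of PECAM1 and CDH1 in the results was not tested. The labels do not say that replicates were separate cultures, so p-values measure the spread between these libraries, and an exact permutation of 3 against 3 could not go below 0.1. In bulk RNA, fewer expressing cells and less RNA per cell cannot be told apart.

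The starts of 4 of the genes are shown as 2 pairs, chosen with their changes known. UQCC1 and UQCC2 share a motif, and of them only UQCC2 rose at 24 h. BCS1L and LYRM7 also share a motif, and they moved in opposite directions at 24 h. Each sequence holds the 250 bases before the RefSeq start on GRCh38.p14, written 5′ to 3′ on the gene's strand, with motif matches in capitals. They lie at chr20:35411974-35412223 (UQCC1, minus strand), chr6:33711701-33711950 (UQCC2, minus strand), chr2:218659433-218659682 (BCS1L, plus strand) and chr5:131170694-131170943 (LYRM7, plus strand). The BCS1L sequence lies wholly inside the span of the gene in the GENCODE annotation. Those of UQCC1 and UQCC2 run into the spans of their genes, so the annotations place these starts differently.
UQCC1: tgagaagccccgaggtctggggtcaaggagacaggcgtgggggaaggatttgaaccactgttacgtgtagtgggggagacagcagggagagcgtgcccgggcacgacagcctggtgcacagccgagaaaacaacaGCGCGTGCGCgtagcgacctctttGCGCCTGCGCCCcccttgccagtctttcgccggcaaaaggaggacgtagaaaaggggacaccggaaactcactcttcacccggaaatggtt
UQCC2: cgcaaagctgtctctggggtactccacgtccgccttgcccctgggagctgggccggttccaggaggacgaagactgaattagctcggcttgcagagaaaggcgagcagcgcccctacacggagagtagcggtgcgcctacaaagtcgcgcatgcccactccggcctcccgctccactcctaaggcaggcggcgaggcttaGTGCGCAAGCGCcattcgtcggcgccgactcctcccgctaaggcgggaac
BCS1L: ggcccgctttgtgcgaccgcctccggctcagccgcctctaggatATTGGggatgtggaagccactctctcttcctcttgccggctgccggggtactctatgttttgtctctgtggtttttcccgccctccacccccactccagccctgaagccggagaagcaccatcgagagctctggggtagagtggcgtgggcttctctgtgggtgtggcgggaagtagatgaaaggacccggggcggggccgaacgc
LYRM7: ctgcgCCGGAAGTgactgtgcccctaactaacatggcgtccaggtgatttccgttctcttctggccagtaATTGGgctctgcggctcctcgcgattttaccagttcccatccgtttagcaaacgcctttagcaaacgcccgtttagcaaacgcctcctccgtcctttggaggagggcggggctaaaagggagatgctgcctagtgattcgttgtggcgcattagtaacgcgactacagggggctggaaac
Both strands were searched in the 5 members of the promoter table, of which TTC19 is not shown. The NRF1 motif (GCGC and TGCGC with any 1 base between them) matched in UQCC1, at 115 and 91 bases before the start, and in UQCC2 at 48 bases, and 5.07% of the 35116 promoters in the table held it. The metal response element core TGCGCNC matched next to or overlapping these in UQCC1 and UQCC2 (16.8% of promoters), and the core TGCACNC matched in none of the 5 (9.87% of promoters). CCAAT matched in BCS1L, LYRM7 and TTC19 (32% of promoters) and the ETS motif CCGGAAGT in LYRM7 alone (3.42%). UQCC3 and CYC1 were not among these 5. A match here is a description of letters only.

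The first comparison asked what 8 h of TEPA did to these transcripts. Of the 7 genes, 2 fell (UQCC3 and TTC19), 2 rose (LYRM7 and BCS1L) and 3 did not pass the test (UQCC1, UQCC2 and CYC1), at an adjusted p under 0.05 in edgeR's quasi-likelihood test. UQCC3 was picked on a contrast with the same untreated libraries, so its 8 h test is not independent of the pick. Of all genes tested, 24.5% were called lower and 25.2% higher, so calls of this kind were common, and the members' 2 in each direction stand close to that background. The 3 libraries lay entirely below the untreated ones for 2 members and entirely above for 4, against 28.6% and 29.2% of all genes. The median log2 fold change was 0.070 over the members and -0.0013 over all genes tested. With a log2 fold change beyond 0.5 also required, 2 of the 4 calls remained, UQCC3 and LYRM7.

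At 24 h, the 6 genes other than UQCC3 gave 3 that fell (BCS1L, TTC19 and CYC1), 2 that rose (LYRM7 and UQCC2) and 1 that did not pass the test (UQCC1). The background at 24 h was 26.8% of genes lower and 25.7% higher, and nothing is read from the members' count, since the list came with this contrast known. The libraries did not overlap for 3 of the 6 below and 2 above, against 28.9% and 28.4% of all genes. The median log2 fold change was -0.24 over these 6 and 0.0023 over all genes tested.

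**Figure D1:**
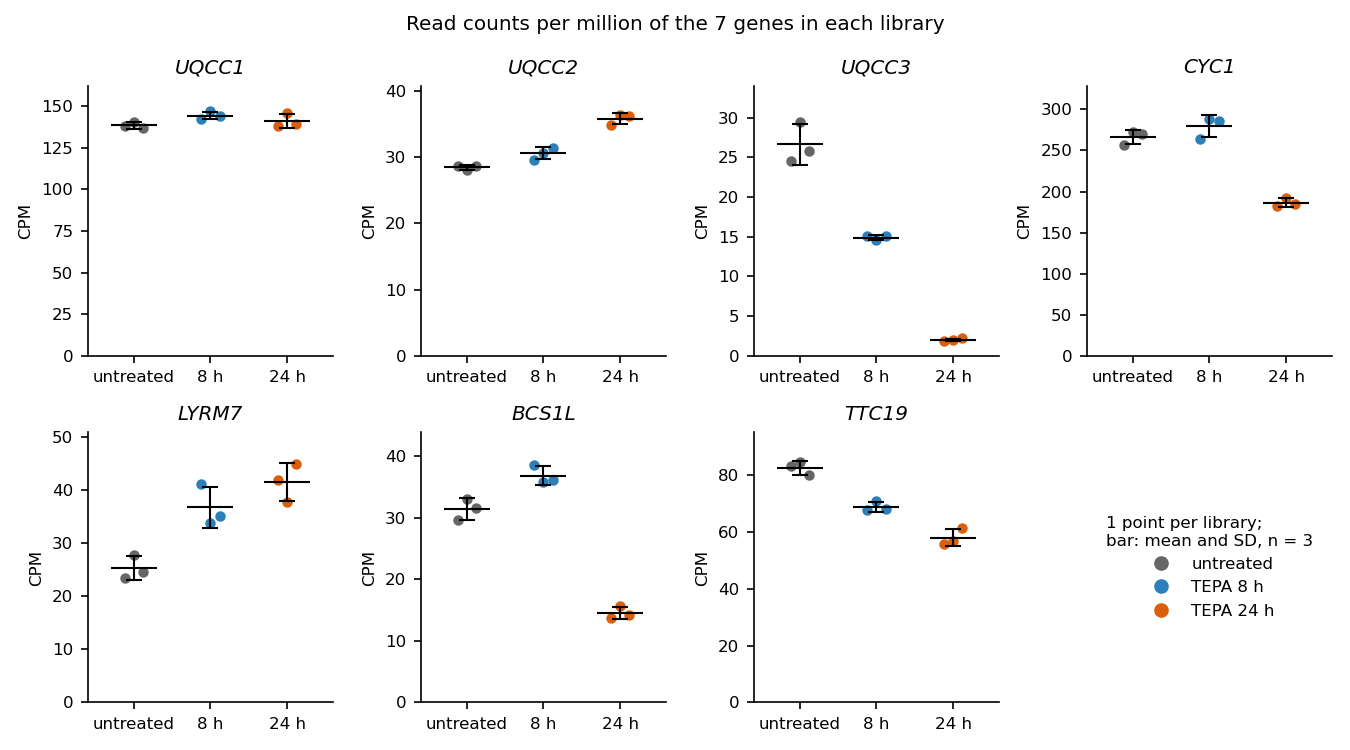
TMM-scaled CPM (vertical axes from 0) of the 7 genes in each library of untreated cells and cells given TEPA for 8 h or 24 h. Points are single libraries, and bars give the mean and SD of 3. UQCC3 falls from 24.5 to 29.5 CPM in untreated libraries to 1.90 to 2.20 at 24 h, while UQCC1 stays between 136 and 147 in all 9.

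The first stage of assembly surrounds cytochrome b. UQCC1, which lies at chr20:35302566-35412031 on the minus strand and whose product binds newly made cytochrome b together with UQCC2, was at 138, 141 and 136 CPM (scaled by TMM) in untreated libraries 1 to 3. It was at 142, 147 and 144 CPM at 8 h and at 138, 146 and 139 CPM at 24 h. All values lay in a narrow band, the untreated and 24 h libraries overlapped, and the 8 h libraries lay just above the untreated ones. The log2 fold change was 0.06 ± 0.04 (SE) at 8 h (edgeR adjusted p = 0.18) and 0.03 ± 0.04 at 24 h (adjusted p = 0.56), neither past the test.

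UQCC2, the partner of UQCC1 and a matrix protein (chr6:33694293-33711727, minus strand), was at 28.7, 28.0 and 28.7 CPM untreated, 29.6, 30.5 and 31.4 CPM at 8 h and 34.8, 36.3 and 36.1 CPM at 24 h. The 3 groups did not overlap, with the 24 h libraries highest. At 8 h the log2 fold change of 0.10 ± 0.05 did not pass (edgeR adjusted p = 0.090), and at 24 h UQCC2 rose by 0.33 ± 0.05 (adjusted p = 2.5e-05). From 8 h to 24 h it rose by 0.23 ± 0.05 (adjusted p = 6.7e-04).

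UQCC3, a small membrane protein of the same stage that also interacts with cardiolipin, had 920, 1348 and 1018 counts in untreated cells. It had 602, 556 and 554 after TEPA for 8 h, and 97, 85 and 79 after TEPA for 24 h. Scaled, these were 24.5, 29.5 and 25.8 CPM untreated, 15.05, 14.54 and 15.07 CPM at 8 h and 1.90, 1.97 and 2.20 CPM at 24 h. The 3 groups were far apart from each other, and the replicates within a group were close. The gene lies at chr11:62670273-62673686 on the plus strand.

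At 24 h the mean of UQCC3 was 2.02 ± 0.154 CPM (SD, n = 3), 7.60% of the untreated mean of 26.6 ± 2.59 CPM, and the log2 fold change was -3.73 ± 0.09, a 13.2-fold lower level. This value chose the gene and carries no test. Among the 11920 tested genes with a mean of at least 100 counts no other fell as far, and the next were IKBKGP1 at -3.23, ZNF619 at -2.91 and NEK3 at -2.74. Among all 16556 genes tested, 3, UQCC3 included, were at or below its value.

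The 8 h libraries were not used in that choice. Their comparison uses the same untreated libraries, so the 8 h test of UQCC3 is not independent of the choice. At 8 h UQCC3 was at 14.9 ± 0.304 CPM, 55.9% of the untreated mean, and fell by 0.84 ± 0.07 on the log2 scale (edgeR adjusted p = 2.2e-07), lower in 3 of 3 libraries than in each untreated one. Between 8 h and 24 h the log2 fold change was -2.89 ± 0.10, given without a test.

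Ratios within a library do not depend on its scaling. The count ratio of UQCC3 to UQCC2 was 0.856, 1.06 and 0.900 without TEPA, 0.508, 0.476 and 0.480 at 8 h and 0.0546, 0.0543 and 0.0608 at 24 h. UQCC3 and UQCC2 thus had near-equal counts in untreated cells and very unequal counts after 24 h, the time on which UQCC3 was picked. Counts do not allow for gene length. In CPM per kilobase of exon, UQCC3 stood above UQCC2 in untreated cells (mean 11.1 against 6.06) and below it at 24 h (0.844 against 7.63). That length joins all annotated exons of a gene, whichever transcripts the cells make, so levels of different genes compare only roughly. The ratio of UQCC3 to UQCC1 went from 0.192 ± 0.0162 untreated to 0.103 ± 0.00365 at 8 h and 0.0144 ± 0.00124 at 24 h (mean ± SD, n = 3).

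**Figure D2:**
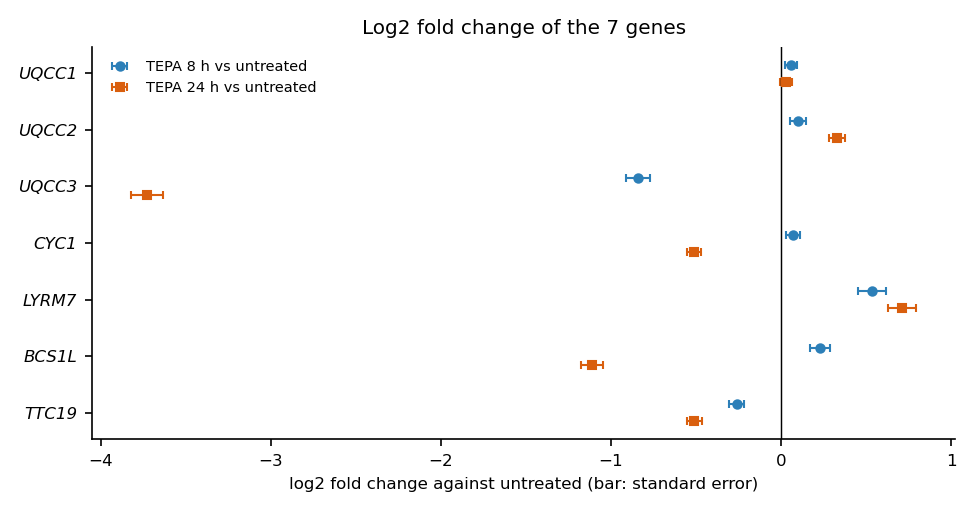
Log2 fold change against untreated cells (horizontal axis) of the 7 genes after TEPA for 8 h (circles) and 24 h (squares), with standard errors as bars. UQCC3 lies at -0.84 and -3.73, BCS1L lies on opposite sides of 0 at 0.23 and -1.11, and LYRM7 lies at 0.54 and 0.71.

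UQCC3 overlaps LBHD1, a gene on the opposite strand, over 978 exon bases, 40.8% of the exon bases of UQCC3 in the GENCODE annotation. Reads were counted with strand by the authors. LBHD1 was at 2.59, 2.19 and 2.46 CPM untreated, 2.55, 3.24 and 2.48 CPM at 8 h and 5.32, 5.58 and 4.95 CPM at 24 h. Its 24 h libraries lay above all others, opposite to UQCC3. LBHD1 did not pass at 8 h (log2 fold change 0.20 ± 0.14, edgeR adjusted p = 0.25), rose by 1.14 ± 0.13 at 24 h (adjusted p = 1.7e-06) and rose by 0.94 ± 0.12 between the times (adjusted p = 1.0e-05).

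The count ratio of UQCC3 to LBHD1 was 11.2 ± 2.08 untreated, 5.49 ± 0.877 at 8 h and 0.385 ± 0.0512 at 24 h (mean ± SD, n = 3), so LBHD1, with fewer counts than UQCC3 in untreated cells, had more at 24 h. The next genes on each side moved far less than UQCC3 or the other way. CSKMT, 1776 bases away on the same strand, rose by 0.72 ± 0.12 at 8 h (edgeR adjusted p = 1.4e-04) and was at 0.26 ± 0.12 at 24 h (adjusted p = 0.088). Leaving out 1 library gave 0.15 without TEPA 24 h replicate 2 (adjusted p = 0.35) to 0.38 without TEPA 24 h replicate 3 (adjusted p = 0.010). UBXN1, 2811 bases away on the opposite strand, was at -0.04 ± 0.04 at 8 h (adjusted p = 0.42) and fell by 0.13 ± 0.04 at 24 h (adjusted p = 0.0099).

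**Figure D3:**
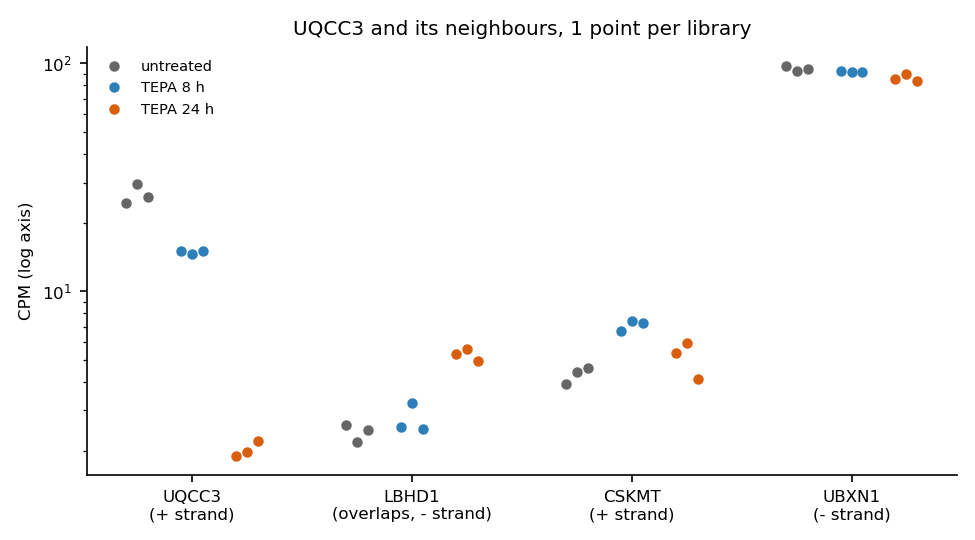
CPM on a log axis of UQCC3, of LBHD1, which overlaps it on the opposite strand, and of the next genes CSKMT and UBXN1, with 1 point per library and colours for untreated, TEPA 8 h and TEPA 24 h. UQCC3 drops to 1.90 to 2.20 CPM at 24 h, below LBHD1 at 4.95 to 5.58, while UBXN1 lies between 83.4 and 97.0 in all libraries.

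The next stage adds cytochrome c1. CYC1, the heme-bearing subunit that hands electrons to cytochrome c and no assembly factor itself, was at 256, 273 and 270 CPM untreated, 265, 289 and 286 CPM at 8 h and 183, 193 and 185 CPM at 24 h. The untreated and 8 h libraries overlapped, and all 24 h libraries lay below both. CYC1 did not pass at 8 h (log2 fold change 0.07 ± 0.04, edgeR adjusted p = 0.18), fell by 0.51 ± 0.04 at 24 h (adjusted p = 6.8e-08) and fell by 0.58 ± 0.04 between 8 h and 24 h (adjusted p = 1.7e-08).

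HCCS, the lyase that attaches heme to cytochrome c1 and cytochrome c, was at 65.7 to 70.8 CPM untreated, 67.5 to 70.5 CPM at 8 h and 57.5 to 60.8 CPM at 24 h. It was at 0.0031 ± 0.042 on the log2 scale at 8 h (edgeR adjusted p = 0.96) and fell by 0.21 ± 0.04 at 24 h (adjusted p = 5.3e-04). The fall of HCCS at 24 h was smaller in size than that of CYC1, a difference that was not tested. Both neighbours of CYC1 also fell at 24 h, GPAA1 by 0.33 ± 0.05 (adjusted p = 2.9e-05) and SHARPIN by 0.27 ± 0.05 (adjusted p = 2.2e-04).

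The last stage inserts the Rieske protein, and its 3 factors took different courses. LYRM7, the matrix chaperone that holds UQCRFS1 before insertion (chr5:131170944-131205428, plus strand), was at 23.5, 27.8 and 24.6 CPM untreated, 41.3, 33.9 and 35.2 CPM at 8 h and 42.0, 37.9 and 45.0 CPM at 24 h. All treated libraries lay above the untreated ones, and the 8 h and 24 h libraries overlapped. LYRM7 rose by 0.54 ± 0.08 at 8 h (edgeR adjusted p = 6.0e-05) and by 0.71 ± 0.08 at 24 h (adjusted p = 2.5e-06).

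Between the times, the difference of 0.18 ± 0.08 in LYRM7 did not pass (edgeR adjusted p = 0.072). It passed under 7 of 17 alternative settings, over which the adjusted p ran from 0.0059 to 0.26, and without TEPA 8 h replicate 1, the highest of the 8 h libraries, it was 0.27 (adjusted p = 0.0099). Without TEPA 24 h replicate 2 it was 0.24 (adjusted p = 0.024), without untreated replicate 1 it was 0.18 (adjusted p = 0.045) and without untreated replicate 2 it was 0.18 (adjusted p = 0.041).

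BCS1L, the AAA ATPase that moves the folded Rieske protein across the inner membrane (chr2:218658764-218663443, plus strand), was at 29.5, 33.1 and 31.6 CPM untreated and at 38.6, 35.8 and 36.1 CPM at 8 h. It was at 13.8, 15.7 and 14.2 CPM at 24 h. The 8 h libraries lay above and the 24 h libraries far below the untreated ones, with no overlap among the 3 groups. BCS1L rose by 0.23 ± 0.06 at 8 h (edgeR adjusted p = 0.0050) and fell by 1.11 ± 0.06 at 24 h (adjusted p = 1.6e-09), to 46.3% of the untreated mean. From 8 h to 24 h it fell by 1.34 ± 0.06 (adjusted p = 3.0e-10).

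TTC19 (chr17:15999784-16045015, plus strand) was at 83.1, 84.6 and 80.0 CPM untreated, 67.8, 71.0 and 68.1 CPM at 8 h and 55.8, 57.0 and 61.4 CPM at 24 h. The groups did not overlap and stepped down with time. TTC19 fell by 0.26 ± 0.04 at 8 h (edgeR adjusted p = 1.6e-04), by 0.51 ± 0.04 at 24 h (adjusted p = 1.4e-07) and by 0.25 ± 0.04 between the times (adjusted p = 2.0e-04).

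The counts of the chaperone and the translocase of the Rieske stage, near 1 to 1 at first, separated at 24 h. Counts do not allow for gene length. In CPM per kilobase of exon, LYRM7 lay below BCS1L in untreated cells (mean 4.07 against 9.29). At 24 h it lay above BCS1L (6.69 against 4.30). These lengths join all annotated exons of each gene, so this order is approximate. The count ratio of LYRM7 to BCS1L was 0.797, 0.841 and 0.780 untreated, 1.07, 0.947 and 0.975 at 8 h and 3.05, 2.42 and 3.18 at 24 h. The 24 h libraries lay above all others. Over the 7 genes, 24 h against 8 h gave 3 falls and 1 rise among the 6 other than UQCC3, with 2 not past the test, against 28.8% lower and 26% higher of all genes. Libraries lay fully below for 3 and fully above for 1, against 32.4% and 29.6%, and the median was -0.14 over the 6 genes and -0.016 over all genes tested. Beyond a log2 fold change of 0.5, 2 of these 4 calls remained, BCS1L and CYC1.

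Several of these genes overlap or adjoin others, and strand was used in counting. ZNF142 overlaps BCS1L over 455 exon bases on the opposite strand and fell by 0.31 ± 0.05 at 24 h (edgeR adjusted p = 1.5e-04), and RNF25, 448 bases away, fell by 0.31 ± 0.05 (adjusted p = 4.9e-05). ITPR3 overlaps UQCC2 over 1025 exon bases on the opposite strand and was at -0.10 ± 0.04 at 24 h (adjusted p = 0.074). It passed without TEPA 24 h replicate 2 (-0.13, adjusted p = 0.028) and without TEPA 8 h replicate 1 (-0.098, adjusted p = 0.049). NCOR1 shares 340 exon bases with TTC19 and was at -0.0017 ± 0.037 (adjusted p = 0.97). ZSWIM7, 66 bases from TTC19 on the opposite strand, rose by 0.49 ± 0.08 while TTC19 fell (adjusted p = 1.0e-04). HINT1, whose span holds LYRM7 with no shared exon base, was at 0.07 ± 0.03 (adjusted p = 0.080). HINT1 passed with upper-quartile factors (0.097, adjusted p = 0.019), with 10 counts required in each library (0.081, adjusted p = 0.041) and with DESeq2 (0.078, adjusted p = 0.049).

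Per length of exon, the order of the 7 genes changed with TEPA. On the scale of CPM per kilobase of GENCODE exons, the untreated levels were 136 ± 4.59 for CYC1, 20.7 ± 0.317 for UQCC1, 13.6 ± 0.385 for TTC19, 11.1 ± 1.08 for UQCC3, 9.29 ± 0.522 for BCS1L, 6.06 ± 0.0882 for UQCC2 and 4.07 ± 0.356 for LYRM7 (mean ± SD, n = 3). No neighbours in that order overlapped. At 8 h UQCC3 was sixth at 6.21 ± 0.127, overlapping LYRM7 at 5.92 ± 0.633, and TTC19 overlapped BCS1L. At 24 h UQCC3 was last at 0.844 ± 0.0643, below BCS1L at 4.30 ± 0.302 and LYRM7 at 6.69 ± 0.574, and no neighbours overlapped. Each length joins all annotated exons of a gene, whichever transcripts the cells make, and the authors counted over another annotation. Lengths, and with them the order of the genes within a group, are therefore approximate.

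The client proteins and the other subunits were read alongside. Of 9 further subunits of complex III, 7 fell and 1 rose at 8 h (median on the log2 scale -0.17), and 6 fell and 0 rose at 24 h (median -0.16), where 24.5% of all genes were called lower and 25.2% higher at 8 h and 26.8% and 25.7% at 24 h. The one rise was MT-CYB, the client of the UQCC factors. MT-CYB was at 697, 1123 and 817 CPM untreated, 1648, 1449 and 1653 CPM at 8 h and 740, 710 and 693 CPM at 24 h. The 8 h libraries stood above all others, and the untreated and 24 h libraries overlapped.

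MT-CYB rose by 0.85 ± 0.11 at 8 h (edgeR adjusted p = 1.8e-05), where the share of counts from all mitochondrially encoded genes was also highest, and whether that share plays a part in it was not tested. At 24 h it was at -0.30 ± 0.11 (adjusted p = 0.038), a call that was lost without untreated replicate 2 (-0.09, adjusted p = 0.28), without any 1 of the 24 h replicates (adjusted p of 0.060 to 0.098), with DESeq2 (adjusted p = 0.17), with upper-quartile factors (0.058), in a fit of the 2 groups (0.063) and with the replicate block (0.060). From 8 h to 24 h it fell by 1.15 ± 0.12 (adjusted p = 5.9e-07).

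UQCRFS1, the Rieske protein handled by LYRM7, BCS1L and TTC19, was at 101 ± 1.41 CPM untreated (SD, n = 3), 88.0 ± 0.247 CPM at 8 h and 90.2 ± 1.89 CPM at 24 h. The treated libraries lay below the untreated ones at both times. UQCRFS1 fell by 0.20 ± 0.04 at 8 h (edgeR adjusted p = 2.6e-04) and by 0.16 ± 0.04 at 24 h (adjusted p = 0.0011). Among the core subunits, UQCRC2 fell by 0.27 ± 0.04 at 8 h (adjusted p = 1.2e-04) and then by 0.43 ± 0.04 against untreated at 24 h (adjusted p = 7.8e-07), and UQCRC1 by 0.19 ± 0.04 (adjusted p = 8.1e-04) and 0.26 ± 0.04 (adjusted p = 3.1e-05).

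Of the small subunits, UQCR10 fell at both times, by 0.17 and 0.27. UQCRB fell by 0.18 at 8 h and was at -0.11 at 24 h (edgeR adjusted p = 0.015), a call lost without untreated replicate 2 (adjusted p = 0.051), without TEPA 24 h replicate 1 (0.088) and with upper-quartile factors (0.053). UQCRQ and UQCRH fell by 0.14 each at 8 h, and did not pass at 24 h, at -0.015 and 0.019. UQCR11 did not pass at either time, at 0.11 and 0.04, although without TEPA 8 h replicate 1 its 8 h value of 0.15 did (adjusted p = 0.026).

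**Figure D4:**
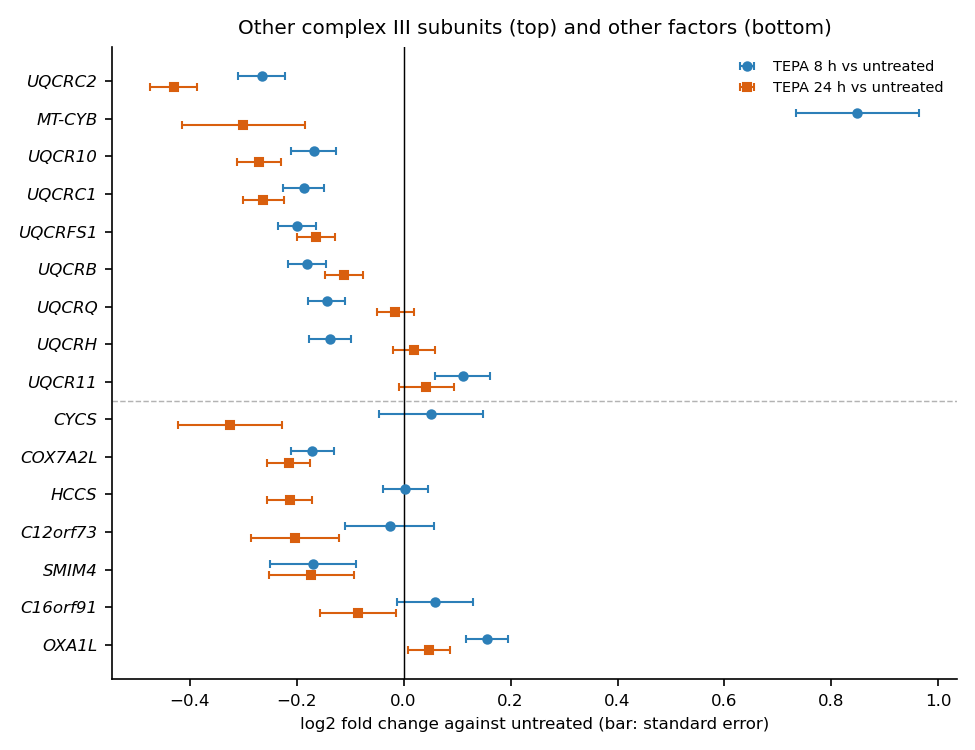
Log2 fold change against untreated cells (horizontal axis, bars are standard errors) after TEPA for 8 h (circles) and 24 h (squares) for 9 other subunits of complex III above the dashed line and 7 other complex III factors below it. MT-CYB stands apart at 0.85 at 8 h, and the other values lie between -0.43 and 0.16.

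Of 7 other factors listed with complex III, among them its electron acceptor CYCS, 1 fell, 1 rose and 5 did not pass at 8 h, and 3 fell, CYCS included, 0 rose and 4 did not pass at 24 h. The shares over all genes were 24.5% lower and 25.2% higher at 8 h, and 26.8% and 25.7% at 24 h. COX7A2L, which ties complex III into supercomplexes, fell by 0.17 ± 0.04 at 8 h (edgeR adjusted p = 0.0023) and 0.21 ± 0.04 at 24 h (adjusted p = 3.2e-04). OXA1L, the insertase of mitochondrially made membrane proteins, rose by 0.16 ± 0.04 at 8 h (adjusted p = 0.0035) and was at 0.05 at 24 h (adjusted p = 0.33). CYCS, the cytochrome c that complex III reduces, was at 0.05 at 8 h (adjusted p = 0.69) and at -0.32 ± 0.10 at 24 h (adjusted p = 0.011), a call lost with DESeq2 (0.064), on leaving out untreated replicate 3 (0.059) and on leaving out TEPA 24 h replicate 2 (0.061).

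The further UQCC factors, listed in the table under older names, did not pass at either time. C16orf91 (UQCC4) was at 0.06 at 8 h and -0.09 at 24 h, SMIM4 (UQCC5) at -0.17 and -0.17, and C12orf73 (UQCC6) at -0.03 and -0.20 (edgeR adjusted p = 0.050 at 24 h). Without TEPA 24 h replicate 2 the 24 h value of SMIM4 passed (-0.24, adjusted p = 0.027). That of C12orf73 passed with the replicate block (adjusted p = 0.048), without untreated replicate 2 (-0.27, adjusted p = 0.016) and without TEPA 24 h replicate 1 (-0.26, adjusted p = 0.040). All stood far from the -3.73 of UQCC3, the value on which that gene was chosen.

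Assembly factors of complexes I, II, IV and V gave the wider setting. Of 50, 13 fell and 11 rose at 8 h, with a median of -0.03, and 14 fell and 12 rose at 24 h, with a median of 0.0061. These counts stand near the background of 24.5% lower and 25.2% higher at 8 h and 26.8% and 25.7% at 24 h. Their 24 h values ran from -0.83 ± 0.12 for TMEM242, a factor of complex V (edgeR adjusted p = 2.2e-05), to 0.56 ± 0.04 for ECSIT, a factor of complex I (adjusted p = 4.6e-08). BCS1L lay below that range and LYRM7 at 0.71 above it, in a list made with this contrast known. UQCC3 also lay below the range, which its choice as the strongest fall had fixed in advance.

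Within single complexes, the lowest and highest values at 24 h were DMAC1 at -0.74 and ECSIT for complex I, SDHAF4 at -0.39 and SDHAF3 at 0.18 for complex II, COA3 at -0.55 and COX19 at 0.46 for complex IV, and TMEM242 and DMAC2L at 0.45 for complex V. All of these passed the test except SDHAF3 (edgeR adjusted p = 0.057), which passed under 5 of 17 alternative settings, among them without untreated replicate 2 (0.22, adjusted p = 0.043) and without TEPA 8 h replicate 2 (0.18, adjusted p = 0.049). SDHAF4 did not pass once TEPA 24 h replicate 1 was left out (-0.31, adjusted p = 0.058).

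**Figure D5:**
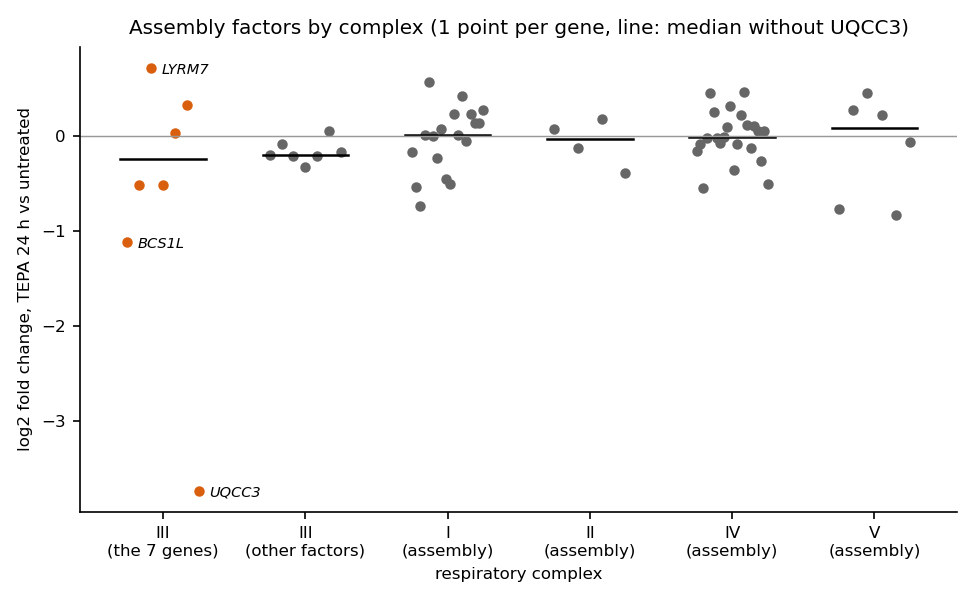
Log2 fold change at 24 h of TEPA against untreated cells (vertical axis) for the 7 genes, 7 other complex III factors and 50 assembly factors of complexes I, II, IV and V, with 1 point per gene and a line at each median, taken without UQCC3. The 50 factors lie between -0.83 and 0.56, with UQCC3, picked for its fall, at -3.73 and BCS1L at -1.11 below them.

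Over the 9 libraries, the 5 genes whose log2 CPM was most like that of UQCC3 among 11919 other genes were NAT8L, RNASEH2C, R3HCC1, VDAC2 and PRKAB2, with Pearson's r of 0.996 to 0.998. Their log2 fold changes at 24 h ran from -1.80 for NAT8L to -0.39 for VDAC2. All were smaller falls than that of UQCC3, which its choice as the strongest fall had fixed in advance. Among the members, r with UQCC3 was 0.92 for BCS1L, 0.94 for TTC19, 0.93 for CYC1, -0.10 for UQCC1, -0.77 for LYRM7 and -0.98 for UQCC2. These correlations describe 9 libraries in 3 groups, and they follow the steps between groups, with the 24 h values on which UQCC3 was picked among them.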

How the data were processed

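RNA was extracted from MDA-MB-231 cells, and stranded mRNA libraries were sequenced in pairs. After quality checks with FastQC, the authors mapped read pairs to hg38 with HISAT2, and featureCounts gave stranded exon counts per gene name over an Ensembl annotation. What they deposited is this table of raw counts, not normalized, with 1 column for each replicate and 0 further columns.

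The analysis used edgeR 4.0.16 (R 4.3.3). A filterByExpr filter at a minimum count of 10 left 16556 genes with 99.9% of counts, library sizes were TMM-scaled (factors 0.978 to 1.039), and all 9 libraries entered 1 quasi-likelihood fit without a block. The study used DESeq2, run here as an alternative (1.42.0). Benjamini-Hochberg adjustment covered all 16556 genes, a call is an adjusted p under 0.05, and the biological coefficient of variation was 0.0481. CPM values are TMM-scaled. Log2 CPM for correlations used a prior count of 2. Gene positions and overlaps came from the GENCODE annotation of GRCh38. Only the edgeR fit was tested on simulated counts, in which far fewer genes changed than were called here.

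The members and gene lists were chosen with earlier results of these data known. Named genes were the 7 members, all subunits and other factors listed for complex III, the extremes at 24 h of the other complexes, the neighbours and the 5 genes most like UQCC3. Next genes lying farther from a member than UBXN1 from UQCC3 are not reported. Replicates of a group differed by more than sampling noise in counts, at 2.38 to 21.4 in chi-square per degree of freedom. Counting error is the least error of a value.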

Additional observations from a re-analysis of the deposited data

Results flagged for a closer look

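Levels of 4 of the 6 genes other than UQCC3 differed between 24 h and 8 h of TEPA. The test was edgeR's quasi-likelihood test of 24 h against 8 h in the same fit. Time under TEPA and time in culture cannot be told apart in it. The difference in log2 fold change was -1.34 for BCS1L (adjusted p = 3.0e-10), which rose at 8 h and fell at 24 h, and -0.58 for CYC1 (adjusted p = 1.7e-08), which did not pass at 8 h. It was -0.25 for TTC19 (adjusted p = 2.0e-04), lower at both times, and 0.23 for UQCC2 (adjusted p = 6.7e-04). In each case all 3 libraries of 24 h lay on one side of all 3 of 8 h. Of all genes tested, 28.8% were called lower and 26% higher in this comparison, and the libraries did not overlap for 32.4% below and 29.6% above, so 4 of 6 is close to the background. The untreated libraries cancel from these differences, but they enter the shared fit that gave the p-values.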

How the results depend on the processing

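Of the members' tested log2 fold changes under 17 alternatives, 316 kept direction and side of the threshold and 7 passed where the reported value had not, all of them LYRM7 between 8 h and 24 h. The 34 values of UQCC3 without a test kept their direction and moved by less than the spread between replicates. The range for UQCC3 was -0.90 to -0.77 at 8 h, -3.78 to -3.65 at 24 h and -2.94 to -2.84 between the times. With a log2 fold change beyond 0.5 also required, 2 members were called at 8 h in place of 4, 4 at 24 h in place of 5 (UQCC2 was lost) and 2 between the times in place of 4, and of all genes 2943, 3095 and 3505 were called at 8 h, at 24 h and between the times in place of 8216, 8688 and 9079. Leaving out 1 library gave 7138 to 8363, 7517 to 8738 and 8060 to 9643 genes, with 4 members called at 8 h, 5 at 24 h and 4 to 5 between the times.

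The replicate numbers did not pair the libraries, with correlations of same-numbered deviations of -0.080 to 0.038 and 0 of 9 over 0.1. With the replicate block 7779, 8355 and 8758 genes and 4, 5 and 4 members were called. The block moved no call of a member, removed that of MT-CYB at 24 h and gave one to C12orf73 at 24 h.

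Some values near 0 changed sign. HCCS at 8 h was at -0.0015 with RLE factors, -0.0016 with DESeq2, -0.0092 without a filter and -0.0013 with library sizes without mitochondrially encoded genes, an alternative chosen after seeing the data. NCOR1 at 24 h was at 0.0057 with RLE factors, 0.0055 with DESeq2, 0.0089 with 10 counts required in each library and 0.025 with upper-quartile factors. UQCRQ at 24 h was at 0.011 with upper-quartile factors. Leaving out 1 library gave -0.027 to 0.020 for HCCS, -0.076 to 0.11 for CYCS and -0.098 to 0.038 for C12orf73 at 8 h, and -0.019 to 0.016 for NCOR1 and -0.013 to 0.037 for UQCRH at 24 h. The cause of these changes was not tested. At 24 h, 79 to 97 counts stand behind each UQCC3 value, which limits its precision more than that of the other members.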
